A study of Mus musculus with 4 samples.

Results

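The C-X-C chemokine ligands described here are Cxcl1, Cxcl2, Cxcl3, Cxcl9, Cxcl10, Cxcl11 and Cxcl16, which are 7 of the 18194 genes that the arrays measured with a probe set of their own. They were read from 12 of the 34958 probe sets that the platform annotation gives to 1 gene symbol, and every such probe set of a member is reported. The members were chosen by their differences on these same arrays, in the knockdown pair and the overexpression pair, so all differences below are descriptions. Cxcl1, Cxcl2 and Cxcl3 form the class of neutrophil-attracting ligands, Cxcl9, Cxcl10 and Cxcl11 that of interferon-induced ligands, and Cxcl16 stands on its own.

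Gene expression was measured on 4 Affymetrix mouse expression arrays, with 1 array per group, after the long noncoding RNA that the labels call lncMDSC and the paper lnc-C/EBPβ was knocked down or overexpressed. All 4 cultures were bone marrow cells of C57BL/6 mice, infected with lentivirus and grown with GM-CSF and IL-6, the conditions under which the study makes myeloid-derived suppressor cells (MDSCs) in 4 days. kdLNC received an shRNA against the RNA and kdNC a control shRNA, which the methods describe as a luciferase shRNA. oeLNC received a lentivirus that carries the RNA and oeNC a control lentivirus, empty according to the methods. The age and sex of the mice, and whether marrow was pooled, are not given in the sources used here. No probe set is annotated to the RNA itself, so its level was not analysed here and the groups are taken from their labels.

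Chemokines are small secreted proteins that draw leukocytes along a gradient, and the C-X-C ligands are named for the spacing of a pair of cysteines near the start of the mature protein. Cxcl1, Cxcl2 and Cxcl3 carry a glutamate-leucine-arginine motif before these cysteines, bind the receptor Cxcr2 and attract neutrophils, and their genes are switched on by NF-kB within inflamed tissue and activated myeloid cells. Cxcl9, Cxcl10 and Cxcl11 lack that motif, are induced by interferons and bind Cxcr3, which activated T cells and natural killer cells carry. Cxcl16 is made as a membrane-bound protein that binds Cxcr6 and takes up oxidized lipoprotein, and it becomes a soluble chemokine when Adam10 cleaves it. Cxcl11 is a special case in these mice, since its gene carries a frameshift in the C57BL/6 strain and RefSeq lists it as a transcribed pseudogene, so the array measured its transcript and says nothing of a protein.

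The promoters are shown because the 3 neutrophil-attracting ligands differed in the same direction within each pair, Cxcl2 within the control SD given below. RefSeq windows of 250 bases before to 50 after the transcription start (build GRCm38.p6) were matched for 5 of the 7 members, which were Cxcl1, Cxcl2, Cxcl3, Cxcl9 and Cxcl10. Capitals mark matches on either strand to the letters GGGANNNNCC, the kappa-B element that NF-kB binds, and to GAAANNGAAA, the interferon-stimulated response element (ISRE).
Cxcl1, chr5:90890995-90891294, plus strand: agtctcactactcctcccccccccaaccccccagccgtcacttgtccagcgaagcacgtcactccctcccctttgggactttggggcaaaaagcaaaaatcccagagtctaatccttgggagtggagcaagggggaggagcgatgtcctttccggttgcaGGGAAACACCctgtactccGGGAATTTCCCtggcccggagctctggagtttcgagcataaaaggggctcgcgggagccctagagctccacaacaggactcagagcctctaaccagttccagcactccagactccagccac
Cxcl2, chr5:90903649-90903948, plus strand: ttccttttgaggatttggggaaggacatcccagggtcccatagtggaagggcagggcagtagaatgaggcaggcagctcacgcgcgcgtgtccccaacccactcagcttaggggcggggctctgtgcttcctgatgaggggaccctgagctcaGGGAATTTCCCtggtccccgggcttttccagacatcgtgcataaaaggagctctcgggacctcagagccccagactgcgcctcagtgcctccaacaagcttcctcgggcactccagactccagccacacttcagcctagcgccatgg
Cxcl3, chr5:90785851-90786150, plus strand: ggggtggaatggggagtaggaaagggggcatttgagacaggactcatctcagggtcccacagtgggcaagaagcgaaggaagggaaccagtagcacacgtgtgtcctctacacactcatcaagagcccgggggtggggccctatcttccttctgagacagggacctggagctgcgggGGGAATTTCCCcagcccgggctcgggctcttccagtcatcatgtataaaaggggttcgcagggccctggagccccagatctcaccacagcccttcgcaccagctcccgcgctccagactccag
Cxcl9, chr5:92328030-92328329, minus strand: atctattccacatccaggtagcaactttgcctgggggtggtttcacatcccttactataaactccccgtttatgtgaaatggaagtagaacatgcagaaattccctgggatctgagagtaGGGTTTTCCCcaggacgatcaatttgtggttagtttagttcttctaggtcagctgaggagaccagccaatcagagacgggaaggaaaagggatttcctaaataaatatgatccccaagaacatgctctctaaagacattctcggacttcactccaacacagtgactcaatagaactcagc
Cxcl10, chr5:92348840-92349139, minus strand: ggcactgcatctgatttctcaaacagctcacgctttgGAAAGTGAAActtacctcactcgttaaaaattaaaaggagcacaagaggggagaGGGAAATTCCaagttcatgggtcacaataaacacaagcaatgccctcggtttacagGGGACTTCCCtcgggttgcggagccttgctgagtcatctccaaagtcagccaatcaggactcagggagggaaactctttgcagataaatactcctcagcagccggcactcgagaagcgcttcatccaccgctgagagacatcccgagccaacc
The longest unbroken stretch that the 3 neutrophil-attracting ligands shared was the 13 bases ctccagactccag, which lie after the start and hold no kappa-B letters. The longest around kappa-B letters was the 11 bases GGGAATTTCCC, 71 to 61 bases before the start in Cxcl1, 97 to 87 in Cxcl2 and 73 to 63 in Cxcl3. Other shared stretches were not listed. GGGAATTTCCC reads as a kappa-B match on both strands, which overlap. It was found in 14 of 32817 RefSeq windows of the same length (0.0427%), these 3 among them. The stretch was picked because these 3 windows share it, and the 3 genes are close paralogs, so nothing is read from that share. A kappa-B match of any kind was present in 20.7% of the windows and in all 5 shown. The window of Cxcl1 held another at 90 to 81 bases, that of Cxcl9 held 1 at 130 to 121 bases, on the opposite strand to the gene, and that of Cxcl10 held them at 159 to 150 and 103 to 94 bases. The ISRE letters occurred in 3.43% of windows and, of the 5, only in that of Cxcl10, 213 to 204 bases before the start. None of the 5 held TTCNNNGAA, the gamma-activated sequence of Stat factors (8.29% of windows), or TTGCNNAA, a C/EBP core (10.8% of windows). These matches describe letters in a window and not binding.

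With 1 array per group no difference has a replicate error or a p-value. As a measure of how far arrays with control vectors lay apart, the SD of oeNC minus kdNC was taken over 500 genes, those closest to each member in level. This control SD was 0.46 to 0.63 on the log2 scale for the 7 members, and it holds vector, culture and array together. The median log2 intensity of an array was 4.17 to 4.24. A gene's level was read from its brightest probe set, and all differences are log2 differences of the deposited intensities. The log2 ratio of the 3′ to the 5′ Actb probe sets, a sign of RNA integrity, was 1.96 in kdLNC, 1.61 in kdNC, 1.97 in oeLNC and 1.96 in oeNC. For Gapdh it was 0.69 in kdLNC, 0.51 in kdNC, 0.65 in oeLNC and 0.53 in oeNC. Thus kdNC was lowest in both, alone for Actb and close to oeNC for Gapdh, and the part of these ratios in the differences was not tested.

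In the knockdown pair Cxcl1 and Cxcl3 were more than 2-fold higher in kdLNC than in kdNC, and in the overexpression pair both were lower in oeLNC than in oeNC. Cxcl2 differed in the same directions by less. In these bulk cultures, fewer cells of a type and less RNA per cell cannot be told apart.

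Cxcl1, the mouse keratinocyte-derived chemokine, has 3 probe sets. The brightest (1457644_s_at) read 809 in kdLNC, against 333 in kdNC, and 471 in oeLNC, against 858 in oeNC. The kdLNC array was thus 2.43-fold higher than kdNC (log2 difference 1.28) and the oeLNC array 1.82-fold lower than oeNC (log2 difference −0.87), both beyond the control SD of 0.59. The second probe set (1419209_at), whose name carries no mark of possible cross-matching, read 778 in kdLNC, against 231 in kdNC, and 454 in oeLNC, against 941 in oeNC. It gave the widest differences of the 3, 1.75 in the knockdown pair and −1.05 in the overexpression pair. The third (1441855_x_at) gave 0.68 and −0.45, in the same directions.

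Cxcl3, also called dendritic cell inflammatory protein-1, was measured by 1 probe set (1438148_at). It read 4374 in kdLNC, against 1627 in kdNC, which is 2.69-fold higher (log2 difference 1.43). It read 2672 in oeLNC, against 4792 in oeNC, which is 1.79-fold lower (log2 difference −0.84). Both differences exceeded the control SD of 0.48 at that level.

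Cxcl2, or macrophage inflammatory protein 2, was also measured by 1 probe set (1449984_at). Its intensity was 5478 in kdLNC, against 4350 in kdNC, and 4429 in oeLNC, against 6091 in oeNC. The differences of 0.33 and −0.46 lay within the control SD of 0.46 at that level. The 3 genes are close paralogs that lie near each other on chromosome 5, and probe sets marked _s_at or _x_at can match several transcripts, so some sharing of signal among them was not tested beyond leaving those probe sets out.

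**Figure D1:**
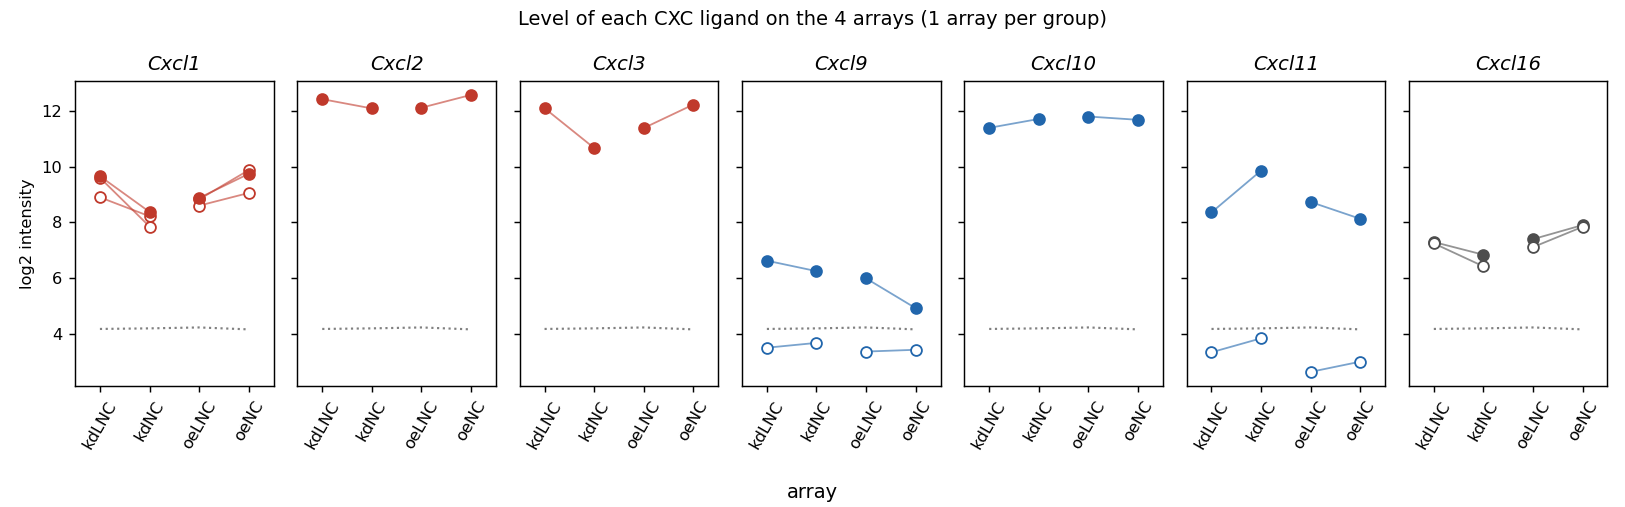
Log2 intensity (y axis) of each ligand on the kdLNC, kdNC, oeLNC and oeNC arrays (x axis, 1 array per group), with filled circles for a gene's brightest probe set, open circles for its others, lines joining the arrays of a pair and a dotted line at each array's median. Cxcl1 and Cxcl3 (red) lie highest on kdLNC and oeNC, Cxcl11 (blue) lies highest on kdNC, and the second probe sets of Cxcl9 and Cxcl11 lie below the array median on all 4 arrays.

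The interferon-induced ligands did not move as 1 group in the knockdown pair. Cxcl11 was more than 2-fold lower in kdLNC, Cxcl10 was slightly lower and Cxcl9 slightly higher. In the overexpression pair all 3 were higher in oeLNC, and only Cxcl9 passed 2-fold.

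Cxcl9, which is induced chiefly by interferon-gamma, was dim. Its brighter probe set (1418652_at) read 99.1 in kdLNC, against 76.3 in kdNC, a difference of 0.38 that lay within the control SD of 0.55. It read 63.8 in oeLNC, against 30.4 in oeNC, which is 2.10-fold higher (log2 difference 1.07). The second probe set (1456907_at) was below the array median on all 4 arrays, at 10.4 to 12.8, and gave differences of −0.17 and −0.064.

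Cxcl10, which responds to type I and type II interferons and to NF-kB, had 1 probe set (1418930_at). Its intensity was 2685 in kdLNC, against 3350 in kdNC, and 3558 in oeLNC, against 3278 in oeNC. The differences of −0.32 and 0.12 lay within the control SD of 0.47.

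The transcript of Cxcl11 was read by 2 probe sets. The brighter (1419697_at) gave 329 in kdLNC, against 929 in kdNC, which is 2.83-fold lower (log2 difference −1.5), and 425 in oeLNC, against 280.1 in oeNC (log2 difference 0.60, within the control SD of 0.63). The other (1419698_at) was below the array median on all 4 arrays, at 6.25 to 14.4. It gave −0.50 in the knockdown pair, in the same direction, and −0.37 in the overexpression pair, in the opposite direction to the brighter probe set.

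Cxcl16 differed in the same directions as the neutrophil-attracting ligands, by more than Cxcl2 and by less than the brightest probe sets of Cxcl1 and Cxcl3. Its brighter probe set (1418718_at) read 157 in kdLNC, against 115 in kdNC, and 169 in oeLNC, against 240.0 in oeNC, differences of 0.46 and −0.50 within the control SD of 0.59. Its second probe set (1449195_s_at) read 152 in kdLNC, against 86.0 in kdNC, and 139 in oeLNC, against 230 in oeNC, differences of 0.82 and −0.73 that lay beyond it.

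By class, the median difference of the neutrophil-attracting ligands was 1.28 in the knockdown pair and −0.84 in the overexpression pair. The median of the interferon-induced ligands was −0.32 in the knockdown pair and 0.60 in the overexpression pair, where it was 0.12 with the mean of each gene's probe sets. The neutrophil-attracting median minus the interferon-induced median was therefore 1.60 and −1.44. The knockdown and overexpression pairs share no array. The median over all genes above the filter was −0.048 for 11505 genes in the knockdown pair and −0.014 for 11869 in the overexpression pair.

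All 7 members passed the filter, which asks for a level above the array's 50th percentile on at least 1 array of a pair. In the knockdown pair 2 members, Cxcl1 and Cxcl3, were at least 2-fold higher in kdLNC, as were 0.478% of all genes, and 1 member, Cxcl11, was at least 2-fold lower, as were 0.356% of all genes. In the overexpression pair 1 member, Cxcl9, was at least 2-fold higher in oeLNC, where 0.295% of all genes were, and 0 were at least 2-fold lower, where 0.809% of all genes were. Since the members were selected on these pairs, nothing is read from their share against these percentages.

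**Figure D2:**
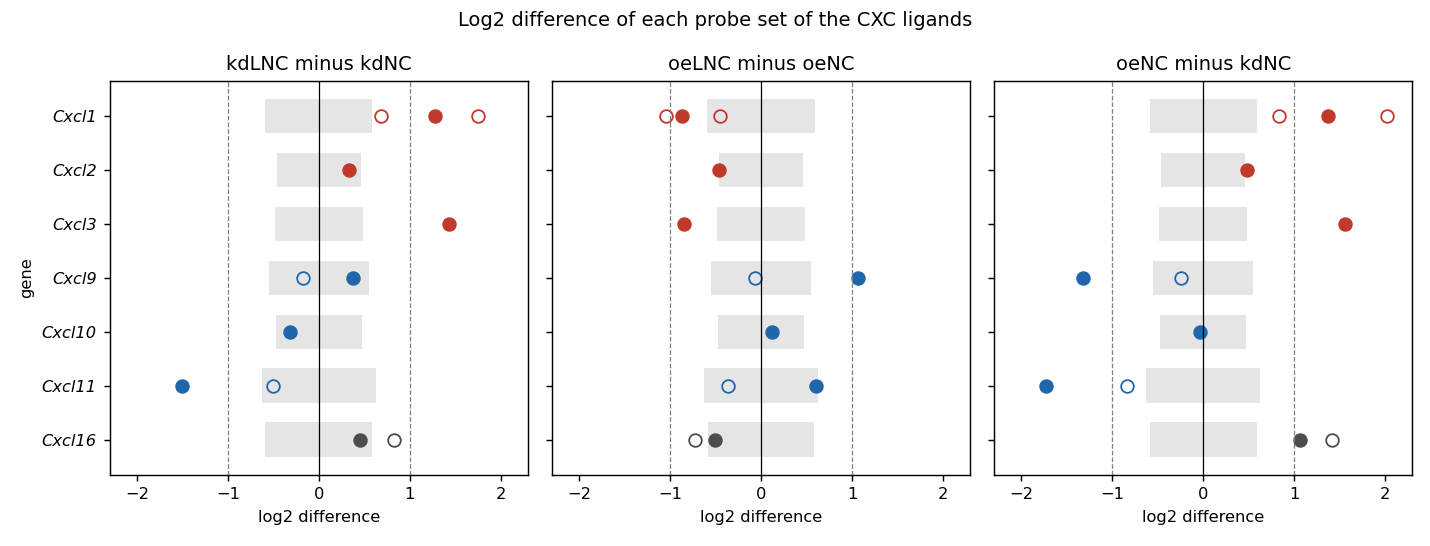
Log2 difference (x axis) of every probe set of the 7 ligands (y axis) in the pair kdLNC and kdNC, the pair oeLNC and oeNC and the control arrays, with filled circles for a gene's brightest probe set, open circles for the others, grey bars of 1 control SD on each side of 0 and dashed lines at 2-fold. The red neutrophil-attracting ligands lie right of 0 in the knockdown and control panels and left of 0 in the overexpression panel, and Cxcl10 lies within its grey bar in all 3.

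For 6 of the 7 ligands, Cxcl10 excepted, the control arrays differed from each other by more than the arrays of either pair did. oeNC minus kdNC was 1.37 for Cxcl1, 0.49 for Cxcl2 and 1.56 for Cxcl3, so Cxcl1 was 2.58-fold and Cxcl3 2.95-fold higher in oeNC than in kdNC. It was −1.33 for Cxcl9, −0.031 for Cxcl10 and −1.73 for Cxcl11, and 1.06 for Cxcl16. The class medians were 1.37 and −1.33, against −0.036 over 11723 genes, and the contrast of the classes was 2.69. Between the control arrays 3 members were at least 2-fold higher in oeNC, where 3.03% of all genes were, and 2 were at least 2-fold lower, where 4.00% were. Each pair shares its control array with this comparison, so the values are given side by side and not as a relation.

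As a result the kdLNC and oeLNC arrays both lay between the control arrays for Cxcl1, Cxcl2, Cxcl3, Cxcl11 and Cxcl16. For Cxcl9 only oeLNC did, and kdLNC was the highest of the 4. For Cxcl10 neither did. All 5 probe sets of the neutrophil-attracting ligands, 3 of them of Cxcl1, had the same order, with oeNC highest, then kdLNC, oeLNC and kdNC. The second probe set of Cxcl16 (1449195_s_at) had this order too. Of the 21 gaps between neighbours in the order of the 4 arrays, over 7 genes, 16 were smaller than the control SD at that level. The 5 larger gaps were kdLNC over oeLNC in Cxcl1 and in Cxcl3, oeLNC over kdNC in Cxcl3, oeLNC over oeNC in Cxcl9 and kdNC over oeLNC in Cxcl11.

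The direction of the class contrast depended on the control array. With both control arrays averaged, the neutrophil-attracting median was 0.60 for kdLNC and −0.18 for oeLNC, and the contrast was 0.90 and −0.28. Against the control array of the other pair alone, an alternative chosen after the values were seen, the neutrophil-attracting median was −0.13 for kdLNC and 0.50 for oeLNC, and the contrast was −0.36 and 0.76. Vector, culture and array cannot be told apart in that setting. Cxcl9 was higher in kdLNC than in either control, by 0.38 against kdNC and 1.7 against oeNC, and Cxcl10 was lower in kdLNC than in either (−0.32 and −0.29).

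**Figure D3:**
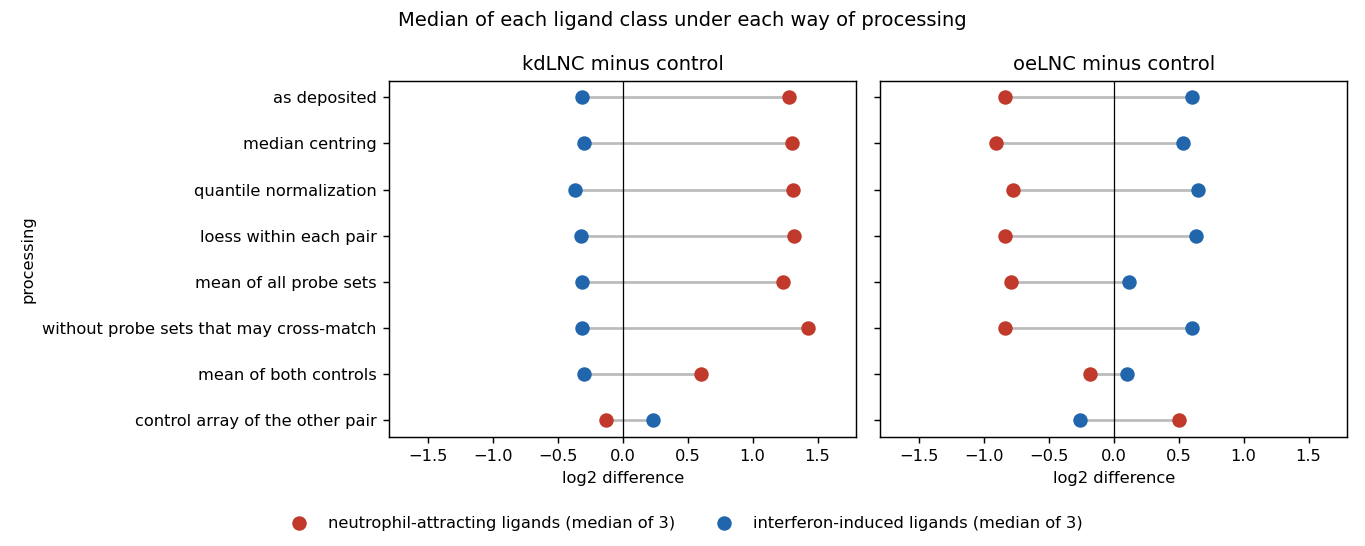
Median log2 difference (x axis) of the 3 neutrophil-attracting ligands (red) and the 3 interferon-induced ligands (blue) in kdLNC and in oeLNC against control, under each way of processing (y axis), as 1 point per class joined by a grey line. The red and blue points keep their sides of 0 down to the mean of both controls, where the red points are 0.60 and −0.18, and change sides when the control array of the other pair is used.

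Other genes of the same pathways were counted from lists chosen with earlier results of these arrays known. Of 27 measured interferon-induced genes, 18 were lower in kdLNC than in kdNC with a median of −0.15, and none of them by 2-fold. Over all genes above the filter 6755 of 11505 were lower in kdLNC, a share close to that of the list. The antiviral genes Mx1 (−0.76), Mx2 (−0.68), Oasl1 (−0.68) and Ifit3 (−0.66) had the widest differences. In oeLNC 23 of the 27 were higher than in oeNC, with a median of 0.42, as were 5675 of all 11869 genes. Of the 27, 3 were at least 2-fold higher, where 0.295% of all genes were. They were the antiviral gene Ifit2 (1.14), the cytokine signalling inhibitor Socs1 (1.13) and the interferon-induced GTPase Ifi47 (1.08). Between the control arrays 25 of the 27 were lower in oeNC than in kdNC, with a median of −0.52, as were 6244 of all 11723 genes.

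Of the 21 measured genes induced by NF-kB, 9 were higher in kdLNC and 12 lower, with a median of −0.020, so the list as a whole did not show the difference of Cxcl1 and Cxcl3. Over all genes above the filter 4675 of 11505 were higher in kdLNC and 6755 lower. Ptgs2, the inducible cyclooxygenase, was the 1 gene past 2-fold (1.16), where 0.478% of all genes were at least 2-fold higher. The cytokines Il1a (0.83) and Il6 (0.68) followed. In oeLNC 17 of the 21 were lower than in oeNC, with a median of −0.20 and none by 2-fold, where 6157 of all 11869 genes were lower. Ptgs2 (−0.996, just under 2-fold) lay lowest, whereas the CC chemokine Ccl4 was higher (0.77). Between the control arrays 17 were higher in oeNC with a median of 0.55, where 5421 of all 11723 genes were higher. Ptgs2 (2.47) led them, whereas Tnf (−1.81) and Ccl4 (−1.78) were lower.

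**Figure D4:**
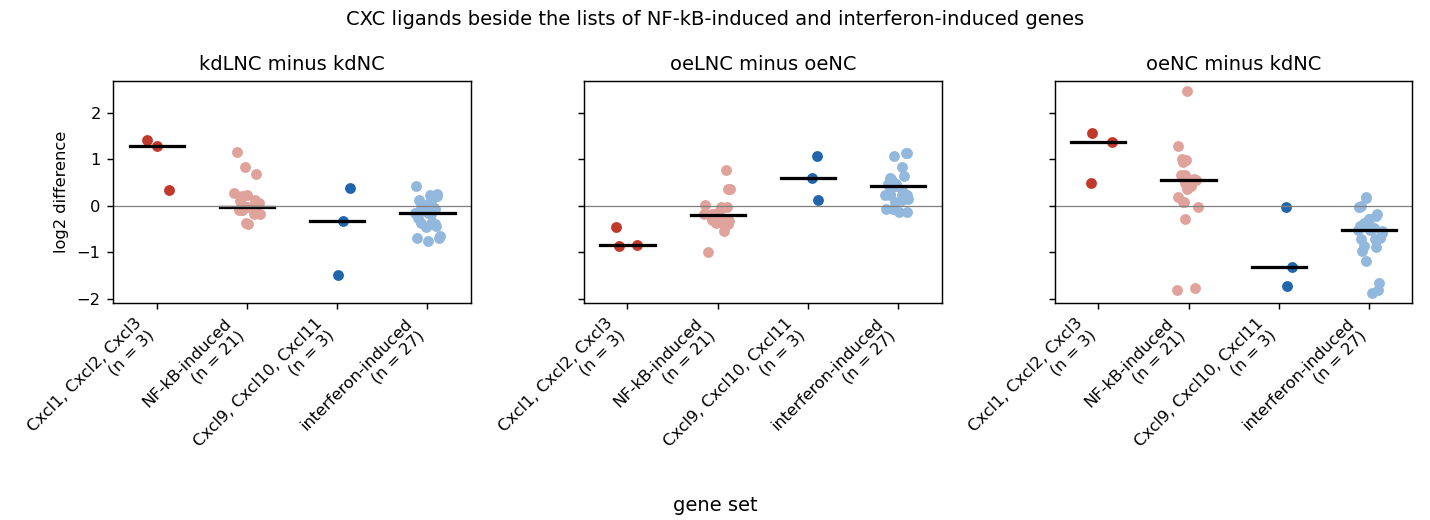
Log2 difference (y axis) of single genes (points) with the set's median (black bar) for the neutrophil-attracting ligands, the NF-kB-induced genes, the interferon-induced ligands and the interferon-induced genes (x axis, with the number of genes in each), in the 2 pairs and between the control arrays. In the overexpression panel the NF-kB-induced genes have a median of −0.20 and the interferon-induced genes one of 0.42, on the same sides of 0 as the 2 ligand classes.

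None of 13 measured genes of interferons, their receptors and transducers differed by 2-fold in either pair, and their medians were −0.16 in the knockdown pair and 0.045 in the overexpression pair. Ifng, which encodes interferon-gamma, read 21.5 in kdLNC, 24.1 in kdNC, 10.4 in oeLNC and 7.10 in oeNC, above the array median on the knockdown pair's arrays only, and oeNC minus kdNC was −1.76.

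None of the 10 other ligands of the C-X-C and related families reached 2-fold in either pair. Pf4, platelet factor 4, which lies in the same cluster on chromosome 5, read 437 in kdLNC, against 254 in kdNC, and 348 in oeLNC, against 610 in oeNC, differences of 0.78 and −0.81. For Pf4 oeNC minus kdNC was larger, at 1.26. Ppbp, also in that cluster, was above the array median on all 4 arrays. In the knockdown pair it went the other way from Pf4, Cxcl1, Cxcl2 and Cxcl3, with 44.3 in kdLNC, against 64.4 in kdNC (−0.54). It read 61.9 in oeLNC, against 78.0 in oeNC (−0.33). Cxcl5, a further neutrophil attractant, was above the array median only in kdLNC, at 20.7, against 12.4 in kdNC. Along chromosome 5 the RefSeq order of selected chemokine genes is Cxcl5, Ppbp, Pf4, Cxcl3, Cxcl15, Cxcl1, Cxcl2, Cxcl9, Cxcl10, Cxcl11 and Cxcl13. Genes between them were left out, so the order does not make the ligand classes neighbours. The promoter window of Cxcl2 starts at base 90903649 and that of Cxcl9 at base 92328030. Cxcl16 lies on chromosome 11.

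Of 9 measured receptors, 5 were above the filter in each pair. In the pairs 1 passed 2-fold, lower in kdLNC, as were 0.356% of all genes. Cxcr2, the receptor for Cxcl1, Cxcl2 and Cxcl3, read 70.3 in kdLNC, against 151 in kdNC (log2 difference −1.10), and 171 in oeLNC, against 147 in oeNC (0.21). Cxcr3, the receptor for the interferon-induced ligands, was above the array median only in kdLNC, with 22.2 in kdLNC, 17.1 in kdNC, 17.5 in oeLNC and 16.1 in oeNC. Cxcr6, the receptor for Cxcl16, was below the array median on all 4 arrays. Adam10, the protease that sheds Cxcl16, differed by 0.20 and −0.29. Of 8 proteases that cut chemokines only Mmp9 passed 2-fold in the pairs, lower in kdLNC (−1.07), as were 0.356% of all genes. None of 6 factors that degrade or stabilise chemokine transcripts passed 2-fold.

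Markers of the cells in the cultures moved with the arrays, and their part in the ligand differences was not tested. All 12 measured neutrophil markers were above the array median on all 4 arrays. Their intensities summed to 39948 in kdLNC, 47150 in kdNC, 48265 in oeLNC and 51568 in oeNC. Of the 12, 7 were lower and 5 higher in kdLNC than in kdNC, with a median of −0.43. At least 2-fold lower in kdLNC were 5 of them (Ltf, Camp, Cxcr2, Mmp9 and Ngp), as were 0.356% of all genes. Ltf differed most, at 127 in kdLNC, against 828 in kdNC. The higher ones, S100a8, S100a9, Lcn2, Mmp8 and Mpo, differed by at most 0.12. The 9 monocyte and macrophage markers summed to 6777 in kdLNC, 7515 in kdNC, 8748 in oeLNC and 8433 in oeNC. None of them differed by 2-fold in either pair. Between the control arrays 3.03% of all genes were at least 2-fold higher in oeNC than in kdNC, and 2 of the 9 markers were. These were Mrc1, the mannose receptor, and F13a1, a coagulation factor subunit. Mrc1 differed by 0.99 in the knockdown pair, −0.71 in the overexpression pair and 1.8 between the control arrays. It was above the array median in oeNC only. F13a1 differed by 0.68, −0.49 and 1.40 in the same order. Both had the signs of Cxcl1 and Cxcl3 in each comparison, but in the pairs the 9 markers as a whole did not. Their medians were −0.062 in the knockdown pair, 0.10 in the overexpression pair and 0.18 between the control arrays. The 4 B cell markers summed to 2988 in kdLNC, 2838 in kdNC, 1372 in oeLNC and 1423 in oeNC. Of these 4, 3 were at least 2-fold lower in oeNC than in kdNC, as were 4.00% of all genes. The 8 markers of eosinophils, basophils and mast cells summed to 2756 in kdLNC, 4173 in kdNC, 2061 in oeLNC and 2029 in oeNC. Set against kdNC, 1 of them was at least 2-fold lower in kdLNC (0.356% of all genes) and 4 in oeNC (4.00% of all genes). The 9 T and NK cell markers summed to 267 to 312 over the arrays. Of these 9, 7 were lower and 2 higher in kdLNC than in kdNC, with a median of −0.12. Only the transcription factor Tbx21 was at least 2-fold higher in kdLNC, at 76.2, against 28.5 in kdNC, as were 0.478% of all genes. Sums over the arrays were 257 to 311 for the 9 stromal and endothelial markers and 845 to 1102 for the 8 dendritic cell markers. Of these, 2 stromal and endothelial markers and 3 dendritic cell markers were above the array median on no array.

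The genes whose centred profile over the 4 arrays lay nearest to the mean profile of a class were taken from 10650 genes above the median on every array, with the Euclidean distance on the log2 scale as the measure. With 4 arrays this is a description. Nearest to Cxcl1, Cxcl2 and Cxcl3 were the splicing regulator Tra2a (0.070), Lrif1 (0.083), Erbin (0.12), the membrane-anchored metalloproteinase Mmp14 (0.17) and Emp1 (0.19). Nearest to Cxcl9, Cxcl10 and Cxcl11 were the DNA ligase Lig3 (0.080), the Mediator subunit Med31 (0.090), N4bp2 (0.10), the small GTPase Rap2a (0.10) and Ifit1 (0.11), itself an interferon-induced gene. Nearest to Cxcl16 were Alpk2 (0.11), Wfdc17 (0.11), Fam210a (0.12), Slc35a5 (0.12) and Hif1a (0.12), the oxygen-sensing transcription factor subunit.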

How the data were processed

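The authors deposited probe set intensity values on a linear scale for 45101 probe sets and 4 arrays, and their processing notes name RMA without a version. Their log2 was taken here. Probe sets annotated to 1 symbol (34958) were used, and those with several (932) or none (9211) were not. A gene was read from its brightest probe set by mean log2. The knockdown difference is kdLNC minus kdNC, the overexpression difference oeLNC minus oeNC and the control difference oeNC minus kdNC. Genes above an array's 50th percentile on 1 or both arrays of the pair were counted at 2-fold. With 1 array per group, limma, which the methods name, could not be fitted. The number of arrays limits precision, and signal over background is not known. The text names all 7 members, up to 4 genes with the largest differences in each related list described, and the 5 genes nearest in profile. A few further genes (Cxcl5, Cxcr3, Cxcr6, Ifng, Adam10) were named for their role. Cell type markers past 2-fold were named for some lists. The members and the 14 lists were chosen with earlier results of these data known. Of 161 listed genes, 148 were measured. The alternatives were the mean of a gene's probe sets, leaving out probe sets that may cross-match, median centring, quantile normalization, loess by pair, a 70th percentile filter or none, thresholds of 1.5-fold and 3-fold, the mean of both controls and, chosen after the values were seen, the control array of the other pair. Python 3.11.15, numpy 2.4.6, pandas 2.3.3, statsmodels 0.14.6 and matplotlib 3.10.9 were used, and the calculation was tested on simulated data.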

Additional observations from a re-analysis of the deposited data

How the results depend on the processing

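No paired analysis was possible because a group is a single array, and no replicate could be left out. A class median was counted as moved when it changed by more than the mean control SD of its own 3 members. For a contrast of the classes the limit was the mean control SD of the 6 class members (0.53). These yardsticks were chosen after the values were seen. Of 36 class values under alternatives other than the control array of the other pair, 31 moved by less than their yardstick, 5 moved further and 0 changed sign. With the mean of all probe sets the overexpression contrast was −0.91 and the interferon-induced median 0.12. With the mean of both controls the neutrophil-attracting median was 0.60 and the contrast 0.90 in the knockdown pair, and −0.18 and −0.28 in the overexpression pair, where the interferon-induced median was 0.10. Of 84 values of single members, 75 moved by less than their control SD, and 3 changed sign under the mean of both controls, Cxcl16 in both pairs and Cxcl11 in the overexpression pair.

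With the control array of the other pair, the knockdown values were −0.13 for the neutrophil-attracting median, 0.23 for the interferon-induced median and −0.36 for the contrast. The overexpression values were 0.50, −0.26 and 0.76. Cxcl1 was −0.084, Cxcl3 −0.13 and Cxcl11 0.23 in the knockdown pair, and Cxcl9 −0.26 in the overexpression pair. In all, 11 of 14 values of single members changed sign, among them Cxcl11 (−1.13), Cxcl3 (0.72), Cxcl1 (0.50) and Cxcl16 (0.56) in the overexpression pair and Cxcl16 (−0.61) in the knockdown pair. The cause was not tested.

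Counts of genes past the threshold (higher, then lower) depended on it by construction. At 1.5-fold they were 272 and 226 in the knockdown pair, 467 and 639 in the overexpression pair and 1081 and 1429 between controls. At 3-fold they were 10 and 6, 2 and 5, and 85 and 95. With the mean of all probe sets they were 32 and 25, 22 and 52, and 229 and 305. With the mean of both controls they were 96 and 98 in the knockdown pair and 6 and 34 in the overexpression pair. Genes higher in oeLNC numbered 20 after median centring, 62 without a filter and 20 with the 70th percentile filter, against 35.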
